A study of Homo sapiens with 6 samples.

Results

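eIF4B cross-link positions in the 3′ UTR of non-histone mRNAs were taken from iCLIP of 2 B-cell lines. A position was a member when it lay on the same strand in the 3′ UTR of a MANE Select transcript of GENCODE release 44, more than 50 nt after the stop codon, and the genes named H1-, H2A, H2B, H3, H4 or MACROH2A were left out. This gave 255673 of 1179243 positions in DoHH-2 and 10545 of 78474 positions in GM01953. DoHH-2 is a diffuse large B-cell lymphoma (DLBCL) line known for the t(14;18) translocation of BCL2, and GM01953 is a control B-cell line. Replicates number 4 for DoHH-2 and 2 for the control line in the labels, which name no treatment, and all cells were irradiated with UVC before eIF4B was precipitated. The deposited values pool the replicates of each line, so every value below is a single value per cell line, with no SD and no test between the lines. Intervals are Wilson or exact 95% intervals and cover counting error only.

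eIF4B is a cofactor of eIF4A, the helicase that unwinds the 5′ UTR so that the small ribosomal subunit can scan to the start codon, and it binds RNA itself. The 3′ UTR is not scanned or translated. It carries the sites through which proteins and microRNAs set the stability, localisation and translation of an mRNA, and it ends at the cleavage site that follows the poly(A) signal. In iCLIP the protein is joined to RNA by UV light, reverse transcription stops beside the joined nucleotide, and each cDNA that stops there adds 1 to the count of that position.

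The positions with the highest counts are shown here because they give the sequence around the strongest single stops, 1 per gene, as 29 nt in DNA letters with the cross-linked base in capitals. All come from GENCODE release 44 transcripts on GRCh38 and lie within 1 exon. In DoHH-2 most of them were a uridine beside or within a run of uridines, whereas ENO1, EEF2 and NAP1L1 had a guanosine at the position.
ENO1 (chr1:8861065-8861093, minus strand): catgtgagcctcgtGtcatctccggggtg
HSP90AA1 (chr14:102081616-102081644, minus strand): tgtttttctttattTttgttaatattaaa
TPT1 (chr13:45337214-45337242, minus strand): ggaggcattgttttTaagaaaaacatgtc
ACTB (chr7:5527294-5527322, minus strand): ttattttgttttatTttgaatgatgagcc
PTMA (chr2:231713115-231713143, plus strand): ttgtattttttattTacattttatatttt
HMGB1 (chr13:30461149-30461177, minus strand): gtcctggtggtattTtcaatagccactaa
RPS24 (chr10:78040649-78040677, plus strand): gtggccactgtggaTttttcgcaagaaca
EEF2 (chr19:3976277-3976305, minus strand): gggaggcgggatggGacacccaacacttt
NAP1L1 (chr12:76047629-76047657, minus strand): gttatttgttgtttGtttgcttgtttttg
JCHAIN (chr4:70656205-70656233, minus strand): agggctttttttttTttttgggtgatgta

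The position of ENO1, a glycolytic enzyme, lay 281 nt after the stop codon and held 198 cDNA counts in DoHH-2, with 14 in GM01953. It was the highest of all members and carried 30% of the 3′ UTR counts of its gene in DoHH-2. The position of HSP90AA1, the inducible cytosolic chaperone, held 158 counts in DoHH-2 and 0 in GM01953. It lay 82 nt after the stop codon, and 521 counts fell within 5 nt of it. TPT1, a growth-related calcium-binding protein, had 104 counts at its position in DoHH-2 and 3 in GM01953. The remaining positions held 46 to 87 counts in DoHH-2, and the top 1% of member positions held 9.36% of the member counts.

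The highest positions of GM01953 are shown for comparison, with the same marking. ACTB was the only gene in both sets, and its highest position in GM01953 lay 1 nt further from the stop codon than in DoHH-2.
ACTB (chr7:5527293-5527321, minus strand): tattttgttttattTtgaatgatgagcct
SLC4A1 (chr17:44248864-44248892, minus strand): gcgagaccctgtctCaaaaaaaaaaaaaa
KMT2D (chr12:49019405-49019433, minus strand): ttggttggttttttTtttaagtaccctgc
AKT2 (chr19:40233785-40233813, minus strand): cccctaactttttaCttagcctttttggt
TMSB4X (chrX:12976945-12976973, plus strand): atcaaagaactactGacaacgaaggccgc

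ACTB, the cytoplasmic β-actin, had 67 counts at this base in GM01953 and 68 at the same base in DoHH-2. TMSB4X, a peptide that sequesters actin monomers, had 27 counts in GM01953 and 5 in DoHH-2. For SLC4A1, the anion exchanger of red cells, 39 counts fell on this base in GM01953 and 11 in DoHH-2. All 76 counts of SLC4A1 in GM01953 lay within 5 nt of it, at the edge of a run of adenosines, while the erythroid markers HBA1, HBA2 and HBB had no count in either line. KMT2D, a histone methyltransferase, and AKT2, a kinase, had 38 and 27 counts at their bases in GM01953 and 0 in DoHH-2. Neither had a further count within 5 nt. Whether reads over these sequences map to 1 place was not tested.

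The 3′ UTR members held 356586 of 2033156 cDNA counts in DoHH-2, which is 17.5% (17.5–17.6), and 19997 of 167197 counts in GM01953, which is 12% (11.8–12.1). The difference was 5.58 percentage points (5.41–5.74). Members of DoHH-2 fell in 9350 genes, of which 4229 had at least 20 counts, and those of GM01953 in 4137 genes, of which 139 had at least 20. Counts were thin in both lines. A member position carried 1.39 counts on average in DoHH-2 and 1.9 in GM01953, and 83.3% and 60.2% of member positions had a single count. Only 0.782% of the 32685231 3′ UTR bases searched had any count in DoHH-2, and 0.0323% in GM01953. An FDR below 0.05 was given to 27.1% of the members in DoHH-2 and to 20% of all other positions, and to 40.9% and 35.9% in GM01953.

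Markers of the labelled cell type were checked over the whole mRNA. Of the B-cell markers, CD74 had 945 counts in DoHH-2 and 333 in GM01953, PAX5 had 358 and 43, and CD79A had 69 and 43. MS4A1 (CD20) had 12 counts in DoHH-2 and 143 in GM01953, the only one of these with the higher raw count in the line of lower depth. CD79B had 97 and 7. The markers of T cells (CD3D, CD3E, CD3G, CD2), myeloid cells (CD14, LYZ, CSF1R) and epithelial cells (EPCAM, KRT8, KRT18) had no count in either line.

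Relative to its length, the 3′ UTR was the region of the mRNA with the lowest occupancy in both cell lines. The expected count was formed within each mRNA, as if its own counts were spread evenly along it. The 3′ UTR held 33.0% of mRNA counts in DoHH-2 against 41.1% expected by length, a ratio of 0.802 (0.800–0.804). In GM01953 it held 23.1% against 41.1%, a ratio of 0.563 (0.556–0.570). The 5′ UTR stood at 2.24 (2.23–2.26) in DoHH-2 and 3.20 (3.15–3.26) in GM01953, and the CDS at 0.940 and 0.981. The 3′ UTR ratio was below 1 in both lines and lower in GM01953, where the 5′ UTR ratio was higher.

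Single genes spread widely around these ratios. Among 4925 genes with at least 50 mRNA counts in DoHH-2 the median ratio was 0.828, with quartiles of 0.577 and 1.15. In 591 of them (12%) the 3′ UTR held more than 1.5 times its expected count, and in 934 (19.0%) it held less than 0.5 times. In GM01953 181 genes had such depth, with a median of 0.541 and quartiles of 0.278 and 0.895. At least 75% of the mRNA counts lay in the 3′ UTR in 141 genes of DoHH-2 and in 2 of GM01953.

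Occupancy fell with the length of the 3′ UTR. In DoHH-2 the ratio was 1.20 for 3′ UTRs of up to 300 nt, 0.951 for those up to 1000 nt, 0.807 for those up to 3000 nt and 0.678 above 3000 nt. The same order was seen in GM01953, with 0.938, 0.699, 0.554 and 0.446. Counts per kb went from 107 in the shortest class to 9.15 in the longest in DoHH-2, and from 10.2 to 0.553 in GM01953. The classes hold different genes, so the level of their mRNAs enters the counts per kb. Base composition of the whole 3′ UTR went with the ratio as well. It was lowest for a GC content of 35 to 40%, at 0.717 in DoHH-2 and 0.450 in GM01953, and highest above 55%, at 0.991 and 0.781. The share expected by length differed as well, at 49.3% and 49.8% in the first of these classes and 32.7% and 33.8% in the second. GC content and the length of the 3′ UTR were not separated.

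Within the 3′ UTR, counts were concentrated near the stop codon. The expected count was now formed within each gene's own 3′ UTR, so that the level of the mRNA does not enter the ratio. In DoHH-2 the ratio was 1.51 (1.49–1.53) at 51 to 100 nt after the stop codon, 1.42 from there to 250 nt, 1.24 to 500 nt, 0.993 to 1000 nt, 0.805 to 2000 nt, 0.643 to 4000 nt and 0.50 beyond 4000 nt. In GM01953 it was 1.62 (1.56–1.68), 1.34, 1.24, 0.935, 0.790, 0.566 and 0.490 in the same bins. Both lines therefore fell in every step away from the stop codon. By counts, the median distance was 511 nt from the stop codon in DoHH-2 and 441 nt in GM01953. Density dropped from 65.9 counts per kb in the nearest bin to 3.4 in the farthest in DoHH-2, and from 10.6 to 0.309 in GM01953. Unlike the ratio, density pools different genes in each bin, since only long 3′ UTRs reach the far bins. The level of their mRNAs therefore enters it.

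The fall depended on how long the annotated 3′ UTR was. When each 3′ UTR was cut into 10 equal parts, the first held 2.94 times its expected count in 3′ UTRs above 3000 nt in DoHH-2, 1.98 times in the class up to 3000 nt, 1.36 times in that up to 1000 nt and 1.07 times in the shortest, up to 300 nt. GM01953 gave 3.18, 2.16, 1.32 and 1.01. In the shortest class the ratio in DoHH-2 instead rose to 1.37 in part 8 before it fell to 0.0189 in part 10. In the longest class it was 0.475 in part 9 and 0.600 in part 10.

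Some genes had few counts in the distal 50% of the counted 3′ UTR. Of 1850 genes with at least 50 counts in DoHH-2, 204 (11.0%) had under 5% of them in the distal 50% of the 3′ UTR, and 59 (3.19%) had none there. In GM01953 19 genes had such depth, 5 (26.3%) with under 5% and 2 (10.5%) with none. These sets include short 3′ UTRs such as that of RPS24, with 102 nt and the farthest count at 85 nt in DoHH-2. In such 3′ UTRs the distal 50% lies close to the end, where a cDNA has little sequence left to map. The part of this was not tested. MYC, the transcription factor, had 496 counts in DoHH-2, with 99.6% in the 20% of the counted 3′ UTR nearest to the stop codon and the farthest count at 941 of 1993 nt. In GM01953 all 37 of its counts lay in the nearest 20%. NAP1L1, a nucleosome assembly chaperone, had 99.0% of 989 counts in the nearest 20% of its 11844 nt in DoHH-2 and 98.0% of 49 in GM01953. PGK1, a glycolytic kinase, had 91.1% of 531 counts there in DoHH-2 and all 20 in GM01953. NCL, which encodes nucleolin, had 83.1% of 860 counts in the nearest 20% in DoHH-2 and 50% of 20 in GM01953. LDHA, the lactate dehydrogenase, had none of 431 counts in DoHH-2 beyond 537 of 1144 nt. LDHA was chosen after its values were seen. The 3′ ends used in these cells were not measured here, so a shorter mRNA and fewer counts on a full-length one cannot be told apart. Without the 204 genes of DoHH-2 with under 5% in the distal 50%, the ratio for 51 to 250 nt after the stop codon was 1.34 against 1.45. Without the 5 such genes of GM01953 it was 1.40 against 1.43. Genes with under 50 counts could not be left out in this way, so their part in the ratio was not tested. A set of GM01953 genes had at least 50 counts and at least 5% of them in the distal 50%. In this set part 1 of 10 instead stood at 0.535 (75 counts) and part 8 at 2.48 (348 counts). Part 8 rests largely on ACTB, with 193 of 361 counts within 5 nt of its highest position, and SLC4A1, with all 76. Whether reads at the SLC4A1 position map to 1 place was not tested. The pooled set did not show the concentration near the stop codon, but it was not examined without ACTB and SLC4A1. The same set of DoHH-2 had 1.78 in part 1 and 0.739 in part 10.

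Counted from the 3′ end, the last 50 nt held few counts and the 50 nt before them held more than expected. In DoHH-2 the ratio was 0.610 at 1 to 50 nt from the end, 1.31 at 51 to 100 nt, 0.861 from there to 250 nt and 0.786 to 500 nt. GM01953 gave 0.626, 1.16, 0.949 and 0.837. The last 250 nt together stood at 0.900 in DoHH-2 and 0.915 in GM01953. With every gene given the same weight the value for GM01953 was 1.01, so its direction did not hold.

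The poly(A) signal was searched as AATAAA or ATTAAA in the last 50 nt of 3′ UTRs with at least 250 nt counted, and the last match was used, in 6948 genes of DoHH-2 and 3225 of GM01953 with a member. In DoHH-2 the ratio rose from 1.12 at 70 to 61 nt before the signal to 1.63 (1.58–1.69) at 40 to 31 nt before it. It fell to 0.543 in the 10 nt before the signal and to 0.0813 in the 10 nt that start at its first base. In GM01953 the highest value in this stretch was 1.54 (1.34–1.76), at 30 to 21 nt before the signal. The 10 nt that start at the first base of the signal stood at 0.150 in this line. From 10 to 19 nt after the first base of the signal the ratio was 0.0396 in DoHH-2, and GM01953 had 0 counts there. A cDNA read starts beside the cross-link and runs towards the 3′ end of the mRNA, so a stop close to the end leaves little sequence to map. The part of this in the low values was not tested.

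Uridine dominated the members. In DoHH-2 the cross-linked base was U for 58.7% of counts against 31.3% expected from the same 3′ UTRs, a difference of 27.4 percentage points. A was at 10.9%, lower than expected by 16 points, and C and G were at 16.1% and 14.3%. In GM01953 U held 53.4%, higher than expected by 23.3 points, A 10.3%, C 19.2% and G 17.1%. The base after the position was U for 58.3% of the DoHH-2 counts and 54.0% of the GM01953 counts, and G for 6.08% and 4.24%. In GM01953 the base after the position was A for 31.8%, higher than expected by 5.89 points. The excess of U was 1.88-fold (1.87–1.88) in the 3′ UTR of DoHH-2, 1.78-fold in the CDS and 1.41-fold in the 5′ UTR. In GM01953 the folds were 1.77 (1.75–1.8), 1.81 and 1.46. UV light is known to join uridine to protein more readily than other bases, and the share of this in the values was not tested.

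Short words followed the same bases. Of 256 words of 4 letters searched on the mRNA strand in the 21 nt centred on the position, TTTT had the highest fold in DoHH-2, being present for 38.8% of counts against 19.2% expected, or 2.02-fold. Next came TTTA at 1.84-fold, TTAT at 1.75-fold, ATTT at 1.67-fold, TATT at 1.67-fold and TTTC at 1.66-fold, then GTTT at 1.57-fold and CTTT at 1.57-fold. In GM01953 the values were 1.82 for TTTT, 1.76 for TTTA, 1.84 for TTAT, 1.66 for ATTT, 1.66 for TATT, 1.59 for TTTC, 1.46 for GTTT and 1.41 for CTTT. The lowest words in DoHH-2 held mostly G and C, with GGCG at 0.525, GCGC at 0.546, CGGC at 0.555, AGGC at 0.572 and GGGC at 0.573. Words overlap one another, so they are not separate findings.

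Longer elements with known readers were searched in the same window. A run of U (TTTTT) was near 21.5% of counts in DoHH-2 against 8% expected, or 2.68-fold, and 2.27-fold in GM01953. The AU-rich pentamer ATTTA, bound by proteins that set the decay of unstable mRNAs, was at 1.56-fold in DoHH-2 and 1.55-fold in GM01953. Its longer form TATTTAT, which contains it, was at 2.08 and 1.78. The words ATTT and TTTA, which make up the pentamer, were at 1.67 and 1.84 in DoHH-2 and at 1.66 and 1.76 in GM01953. Whether these elements differ from other U-rich sequence was not tested. The Pumilio element TGTANATA was at 1.05 (0.997–1.1) and 1.01 (0.805–1.28), so no difference from the expected share was detectable. The purine-rich GAGAGA was at 0.517 and 0.496, and GGACT, which can carry N6-methyladenosine, at 0.810 and 0.845. AATAAA was at 0.488 (0.474–0.503) in DoHH-2 and 0.545 in GM01953, and ATTAAA at 0.885 and 0.958. The poly(A) signals thus did not follow the U-rich words, and their place near the 3′ end, where counts were few, moved with them.

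The sequence around the members was less rich in GC. Around the highest position of genes with at least 20 counts, it was also predicted to fold less stably. GC content from 50 nt before to 50 nt after the position was 39.2% in DoHH-2 against 42.0% expected and 42.2% in GM01953 against 44.1%. Folding energies were predicted for 61 nt at the highest position of each gene with at least 20 counts and for windows along the same 3′ UTR. In 3918 genes of DoHH-2 the median energy was −7.50 kcal/mol at the highest position and −9.86 kcal/mol in the windows, and the median of the differences was 2.22 kcal/mol. The highest position was less stable in 69.6% of the genes. In 126 genes of GM01953 the energies were −7.60 and −10.6 kcal/mol, and the median difference was 2.61 kcal/mol. GC content moved with this result, at 36.1% at the position and 41% in the windows of DoHH-2. In the 1411 genes of DoHH-2 whose GC content at the position was within 5 percentage points of their windows, the difference was 0.900 kcal/mol, and in 49 such genes of GM01953 it was 1.05 kcal/mol.

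Neighbouring positions formed runs, taken as members no more than 3 nt apart. In DoHH-2 3504 runs with at least 10 counts held 24.5% of the member counts, with a median of 7 positions and up to 91. In GM01953 there were 138 such runs with 11.9% of the counts and a median of 2 positions. The lines differ in depth, so the runs cannot be compared.

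Genes are described from here by what their products do, with the 3′ UTR count in each line. No level of the mRNA was measured in these values, so a high count can come from an abundant mRNA. The 3′ UTR counts total 356586 in DoHH-2 and 19997 in GM01953. A higher raw count in DoHH-2 is therefore not a larger share of the 3′ UTR counts by itself. Among cytoskeletal genes, ACTB had the highest 3′ UTR count in both lines, at 2679 in DoHH-2 and 361 in GM01953. This is 4870.9 and 656 counts per kb of 3′ UTR, and 42.3% and 34.1% of its mRNA counts, where length gives 30.4%. Only 0.336% of its counts in DoHH-2 lay in the distal 20% of the 600 nt. CFL1, cofilin, which severs actin filaments, had 847 counts in DoHH-2 and 200 in GM01953. TMSB4X had 128 and 83, STMN1, which destabilises microtubules, 1146 and 67, TUBB, a β-tubulin, 1097 and 24, and SEPTIN9, a septin GTPase, 1039 and 53. ARPC1B, a subunit of the Arp2/3 complex, had 30 and 23 counts. Of the 18 actin genes listed, 16 had at least 20 counts in DoHH-2 and 15 in GM01953. They held 2.02% of all 3′ UTR counts in DoHH-2 and 5.42% in GM01953.

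Several chromatin and nucleic acid binding proteins were among the highest genes of DoHH-2. NUCKS1, a nuclear DNA-binding protein, had 1861 counts along its 5458 nt in DoHH-2 and 49 in GM01953. This was 79.8% and 45% of its mRNA counts, both below the 84.5% that length gives. HMGB2, a DNA-bending protein, had 1237 and 86 counts, and only 0.566% of those in DoHH-2 lay in the distal 20%. ANP32E, a chaperone that removes H2A.Z, had 1105 and 49, and SET, a histone chaperone and inhibitor of PP2A, 996 and 73. TOP2B, a type II topoisomerase, had 497 counts in DoHH-2 and 6 in GM01953. SOX12, a transcription factor, had 40 and 23. The stress-related factor ATF5 had 1030 counts in DoHH-2 and 19 in GM01953.

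Of chaperones, signalling and metabolic genes, HSP90AA1 had 1896 counts in DoHH-2 and 18 in GM01953. In DoHH-2 66.9% of them fell in the nearest 20% of its 970 nt. CALM2, calmodulin, had 1222 and 40 counts, and YWHAG, a 14-3-3 adaptor, 785 and 29. ENO1 had 660 and 31, and GAPDH, another glycolytic enzyme, 180 and 22. The 3′ UTR of GAPDH held 15.3% of its mRNA counts in DoHH-2 and 13.8% in GM01953, against 11.8% of the length. CDK4, the G1 kinase, had 153 and 6, and TFRC, the transferrin receptor whose 3′ UTR holds iron-responsive elements, 138 and 11. MRPS28, a mitochondrial ribosomal protein, had 30 and 31, with 27 of the latter at 1 position. The readthrough gene ENSG00000285043 had 1224 and 141 counts, but 859 and 90 of these lay on the CDS or 5′ UTR of ALDOA, the glycolytic aldolase that it runs through.

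Among genes of B cells, JCHAIN, which joins the units of polymeric immunoglobulin, had 1649 counts in DoHH-2 and 35 in GM01953. BCL2, which blocks apoptosis, had 1413 counts at 896 positions in DoHH-2 and 30 counts in GM01953, 14 of them at 1 position. Its counts ran along the whole 5279 nt in DoHH-2, with 27.5% in the nearest 20% and 12.7% in the distal 20%, and no position had over 13. CD74, the invariant chain of MHC class II, had 309 and 79, and the chemokine receptor CXCR4 had 280 and 8. For genes of translation and decay, EEF2, the translocation factor, had 941 and 59 counts, and EIF5A, which helps the ribosome through difficult peptide bonds, 419 and 70. RPS24, a ribosomal protein, had 369 and 70 on only 52 nt counted, at 7096.2 and 1346.2 counts per kb. EIF4B itself had 95 and 7 counts, 73.6% and 63.6% of its mRNA counts against 50.4% of the length. UPF1, the helicase of nonsense-mediated decay, had 70 counts in DoHH-2 and 1 in GM01953.

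The lists of genes were compared by the ratio of 3′ UTR counts to those expected by length, whose median over all genes with at least 20 mRNA counts was 0.819 in DoHH-2 and 0.468 in GM01953. Ribosomal protein genes stood lowest, with a median of 0.0216 over 59 of 89 listed genes in DoHH-2 and 0 over 40 in GM01953. Of the 89, only 67 had an annotated 3′ UTR over 50 nt. The first 50 nt after the stop codon were left out, and the 3′ ends used in these cells were not measured. The low medians therefore do not show that these 3′ UTRs lack eIF4B. Their annotated 3′ UTRs had a median of 462 nt. Translation factors were at 0.733 over 16 of 18 listed genes in DoHH-2 and 0.727 over 7 in GM01953, and iron-related genes at 0.696 over 6 of 6 and 0.450 over 3. Both lists were thus below all genes in DoHH-2, with few genes behind the second. Actin genes were at 1.04 over 17 of 18 and 0.825 over 18, hnRNP genes, which package and splice nuclear RNA, at 1.01 over 16 of 16 and 0.689 over 14, and mitotic genes at 1.02 over 20 of 20 and 0.461 over 10. AU-rich early response genes, whose mRNAs are known to decay fast, were at 0.965 over 18 of 26 and 0.678 over 11. B-cell surface genes were at 1.05 over 8 of 17 and 0.434 over 8, and MHC genes at 1.12 over 11 of 13 and 0.729 over 8. Nonsense-mediated decay genes had the highest median of the lists in DoHH-2, 1.31 over 7 of 10 genes, while a single gene had enough counts in GM01953.

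The share of all 3′ UTR counts held by a gene was set side by side in the 131 genes with at least 20 counts in both lines. Of these, 5 (3.82%) had a share over 2-fold higher in DoHH-2 and 67 (51.1%) a share over 2-fold higher in GM01953. The filter sets this split, since 20 counts are a far larger share of the 3′ UTR counts of GM01953 than of DoHH-2, and nothing is read from it. The median ratio of DoHH-2 to GM01953 was 0.492. Across these genes the log2 shares had a Pearson r of 0.425 and a Spearman rho of 0.433, which describes genes of a single pair of pooled libraries. Among the 131 genes, the higher shares in DoHH-2 were those of BCL2 at 2.64-fold (1.84–3.93), JCHAIN at 2.64-fold (1.89–3.81), TUBB at 2.56-fold (1.71–4.02), NCL at 2.41-fold (1.55–3.97) and NUCKS1 at 2.13-fold (1.60–2.89). Genes with under 20 counts in GM01953, such as HSP90AA1 and ATF5, got no ratio. The 5 genes are therefore not those with the largest difference of all genes. At the other end the ratio was 0.0148 (0.00854–0.0244) for SLC4A1, 0.0543 (0.0317–0.0927) for MRPS28, 0.0731 (0.0411–0.132) for ARPC1B, 0.0865 (0.0651–0.115) for TMSB4X and 0.0975 (0.0570–0.171) for SOX12. Of the lists with more than 3 genes among the 131, actin genes passed 2-fold towards GM01953 in 9 of 14, MHC genes in 5 of 5, translation factors in 2 of 4 and hnRNP genes in 0 of 4, beside 51.1% of all genes, and none passed it towards DoHH-2. Of the member positions of GM01953, 3743 (35.5%) were also members in DoHH-2, and they held 41.4% of its 3′ UTR counts.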

How the data were processed

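iCLIP of eIF4B was analysed in DoHH-2 and GM01953, grouped by the cell line in the labels. The authors removed PCR duplicates with BBMap, demultiplexed with Je, mapped the reads to GRCh38 with HISAT2 and pooled the replicates. The deposited score is the whole-number cDNA count per position from iCount, not normalized, and the deposited FDR (a q-value) was made by the authors with iCount within genes. Versions of these tools and the annotation are not given in the sources used here. The extended score, a sum around each position, was not used, and 0 other value columns were left out.

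Positions are 0-based in the tables, so 1 was added. Each member was counted once per line, and one in the 3′ UTR of more than 1 mRNA went to the gene named by the authors. In values by region of the mRNA, a position on more than 1 mRNA was counted on each. These hold 357238 3′ UTR counts against 356586 member counts in DoHH-2, and 20044 against 19997 in GM01953. Of 19061 MANE Select mRNAs of GENCODE release 44, 95 histone mRNAs were left out and 18373 had a 3′ UTR over 50 nt. Expected counts were formed within genes. Python 3.11.15, numpy 2.4.6, scipy 1.17.1, pandas 2.3.3, matplotlib 3.10.9 and ViennaRNA 2.7.2 were used, and the scripts were tested on simulated data.

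Named genes were the 15 with the highest count in DoHH-2 and the 10 in GM01953. Further ones were the 8 with the most counts per kb in DoHH-2 (at least 100 counts and 300 nt). The 8 largest and 5 smallest ratios between lines were added, among genes with at least 20 counts in each line. ACTB, GAPDH, EIF4B, UPF1, CDK4, TFRC, CXCR4, BCL2 and MYC were named as well. One B-cell marker that was checked is not reported here. LDHA, TPT1, PTMA and HMGB1 came from their counts or positions. The members and gene lists were chosen with earlier results of these data known. The alternatives were every position once, FDR below 0.05, leaving out the 10 highest genes, equal weight for genes, the longest coding transcript, over 100 nt after the stop codon, a shift of 1 nt, and a shorter folding window.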

Additional observations from a re-analysis of the deposited data

How the results depend on the processing

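No paired analysis was possible because the replicates were pooled, and no replicate could be left out. For DoHH-2 the share of counts in the 3′ UTR (17.5%) was 21.7% with every position counted once, 17.8% with an FDR below 0.05, 16.9% without the 10 highest genes, 18.1% with the longest coding transcript, 16% over 100 nt after the stop codon and 17.5% without positions in the CDS or 5′ UTR of another mRNA. For GM01953 (12%) the first 5 of these gave 13.4%, 13.9%, 11.3%, 12.3% and 10.7%. The difference between lines (5.58 points) was 8.24, 3.93, 5.81 and 5.37 points with every position once, by FDR, with the longest transcript and over 100 nt.

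The ratio 51 to 250 nt after the stop codon (1.45) was in DoHH-2 1.42 with every position once, 1.49 by FDR, 1.43 without the 10 highest genes, 1.42 with equal weight for genes, 1.48 at U only and 1.34 without genes with few distal counts. The last 2 of these settings were chosen after seeing the data. In GM01953 (1.43) it was 1.46 with every position once and 1.46 without the 10 highest genes. The ratio in the last 250 nt (0.900) was in DoHH-2 0.892, 0.906, 0.913, 0.917, 0.886 and 0.940 in that order of settings. In GM01953 (0.915) it was 0.885 with every position once, and reversed to 1.01 with equal weight for genes, where the cause was not tested.

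The excess of U (27.4 points) was in DoHH-2 23.9 with every position once, 35.1 by FDR, 27.0 with equal weight, 20.8 moved 1 nt upstream and 27.0 moved 1 nt downstream. In GM01953 (23.3 points) it was 24.4 by FDR, 24.5 with equal weight and 18.7 moved 1 nt upstream. The ratio of the 3′ UTR within mRNAs (0.802) was in DoHH-2 0.823, 0.763, 0.793 and 0.791 with every position once, by FDR, without the 10 highest genes and with equal weight, and in GM01953 (0.563) 0.533, 0.577 and 0.545 for the first 3. The folding difference in 41 nt was 1.75 kcal/mol in DoHH-2 and 1.91 in GM01953. There were 64 alternatives, and 16 of them stayed within counting error. Those for the share of counts in each line have no direction, since a share has no reference value. Apart from the reversed value, each of the others kept its direction. Leaving out repeats was not run, because the genome used here does not mark them. The depth of GM01953 limits it to 139 genes with at least 20 counts.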
